A study of Homo sapiens with 34 samples.

Results

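Broad H3K4me3 domains were defined as regions of at least 4000 bp of hg38, obtained by pooling the 6 H3K4me3 peak lists of KELLY neuroblastoma cells, merging intervals that shared at least 1 bp on chromosomes 1 to 22 and X, and requiring a peak from each of the 6 lists. There were 1364 such domains among 29774 merged regions, of which 19562 drew on all 6 lists. Every merged region that reached 4000 bp drew on all 6. The domains made up 6.97% of the 19562 regions and held 16.8% of their bases, 7.24 Mb in total. Since the domains were chosen by their measured H3K4me3 width, widths against other regions are given as a description and not tested. The treatment labels were not used in the choice.

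H3K4me3 is laid down at gene starts by the SET1 and MLL enzyme complexes, guided in large part by CpG-rich sequence, and most marked promoters carry it over a short stretch flanking the start. A minority of promoters carry it over several kilobases into the gene body, and in many tissues such broad domains sit on genes that define the identity of the cell. H3K27ac marks active promoters and enhancers, H3K4me1 marks enhancers and the edges of promoters, H3K4me2 lies between these, and H3K27me3 is the mark of Polycomb repression.

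KELLY cells come from a neuroblastoma in which MYCN is amplified, and were used here with a short hairpin RNA that targets RUNX1T1, a corepressor of the ETO family, when doxycycline is given. Both groups carried the hairpin construct in this 1 line; one was given the solvent DMSO and the other doxycycline, and cells were collected after 72 h. For each of 5 marks there were 3 ChIP-seq libraries per treatment, numbered 1 to 3, and nothing in the labels says that these came from separate cultures, so p-values measure the spread between these libraries, which may be technical. Cells with a control hairpin given doxycycline were not analysed here, so effects of the drug and of the knockdown cannot be told apart.

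The libraries limit what follows in several ways. The depth behind the peak calls was 71.9 to 81.1 M reads in DMSO and 57.0 to 63.4 M in doxycycline, so calling depth and treatment cannot be told apart. In H3K4me3, both replicate 3 libraries stood apart, with 22% and 25% redundant reads against 11% to 16% in the other 4, and shorter peaks. Replicate 3 also had the most redundant reads in every other mark, at 16% to 25% against 3% to 13% in replicates 1 and 2. Cell state was checked by H3K4me3 at start sites. All 9 adrenergic markers (among them PHOX2A, HAND2, GATA2, GATA3, ISL1, TBX2, TH and DBH) had a peak at a start in all 6 libraries and lay in broad domains, as against 1 of 6 mesenchymal markers, TWIST1. FOSL1, SNAI2, VIM and FN1 had a peak at a start in all 6 libraries but in regions of 1669 to 2784 bp, and PRRX1 in 3 of 6. By a peak at a start alone the sets thus differed little. The contrast lay in H3K4me3 width, by which the domains were chosen, so it is a description and no independent check.

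The promoter sequences of 5 genes are shown because their domains carry the results below: HAND2 and GATA3 head the coding genes by width, ELAVL4 is the widest neuronal gene of the lists used, and ASS1 and HMGCS1 had domains whose width differed between treatments in opposite directions. Each is the 250 bases before the RefSeq start (GRCh38.p14), 5′ to 3′ on the gene's strand, with CG dinucleotides in capitals.
HAND2, chr4:173530230-173530479, minus strand: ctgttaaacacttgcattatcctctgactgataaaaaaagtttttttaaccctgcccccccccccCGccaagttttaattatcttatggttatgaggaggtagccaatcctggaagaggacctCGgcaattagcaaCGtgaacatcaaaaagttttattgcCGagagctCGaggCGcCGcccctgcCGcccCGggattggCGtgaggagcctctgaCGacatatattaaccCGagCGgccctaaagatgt
GATA3, chr10:8045083-8045332, plus strand: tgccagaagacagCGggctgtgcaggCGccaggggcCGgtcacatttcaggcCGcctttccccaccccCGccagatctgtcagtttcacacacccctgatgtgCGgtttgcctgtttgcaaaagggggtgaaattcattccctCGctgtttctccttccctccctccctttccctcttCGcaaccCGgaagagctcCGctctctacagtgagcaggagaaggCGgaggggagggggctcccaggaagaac
ELAVL4, chr1:50109583-50109832, plus strand: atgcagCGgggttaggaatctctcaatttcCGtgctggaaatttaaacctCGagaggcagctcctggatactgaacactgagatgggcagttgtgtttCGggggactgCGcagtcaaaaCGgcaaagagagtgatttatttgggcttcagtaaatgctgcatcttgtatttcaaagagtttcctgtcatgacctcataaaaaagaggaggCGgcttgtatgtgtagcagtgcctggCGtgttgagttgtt
ASS1, chr9:130444457-130444706, plus strand: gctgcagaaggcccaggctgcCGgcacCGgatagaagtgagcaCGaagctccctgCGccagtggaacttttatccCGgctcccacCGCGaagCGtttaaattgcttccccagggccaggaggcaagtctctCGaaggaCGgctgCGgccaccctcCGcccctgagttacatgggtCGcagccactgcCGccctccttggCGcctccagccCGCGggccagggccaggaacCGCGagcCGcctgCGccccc
HMGCS1, chr5:43313413-43313662, minus strand: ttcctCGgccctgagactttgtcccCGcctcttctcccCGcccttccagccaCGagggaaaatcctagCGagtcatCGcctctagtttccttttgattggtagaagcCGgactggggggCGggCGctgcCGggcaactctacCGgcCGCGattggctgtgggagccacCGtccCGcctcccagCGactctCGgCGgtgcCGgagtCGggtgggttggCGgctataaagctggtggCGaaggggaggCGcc
They hold 13, 11, 8, 21 and 23 CG dinucleotides in that order. The first 4 windows lay wholly inside their domain, and 248 of the 250 bases of the HMGCS1 window did. RefSeq promoters were found for 1227 of the 1551 coding genes with a start in a broad domain, and 1070 of these lay wholly inside one. Their median was 22 CG dinucleotides (quartiles 16 and 30), as in 8730 promoters inside narrower regions (22, with quartiles of 17 and 29) and above 17 over all 15315 promoters. The letters TATAAA, searched on both strands, were present in 8.41% of promoters in broad domains, 3.81% in narrower regions and 9.24% overall. With replication-dependent histone genes left out, the share in broad domains was 6.56%. The E-box letters CATCTG were present in 6.73%, 6.72% and 9.75%. Of the motifs bound by zinc finger factors of the GATA family, the letters AGATAA were found in 3.64%, 3.46% and 6.76%. These are matches of letters and not sites of binding.

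The median width was 4734 bp (quartiles 4291 and 5640), against 2116 bp in the 15541 narrower regions of at least 1000 and under 4000 bp that drew on all 6 lists and served for comparison. Of the 1364 domains, 804 were under 5000 bp, 265 reached 6000 bp and 36 reached 10000 bp. The threshold cut through a continuous range. The domains just inside lay at VDAC1 and INO80D, both of 4002 bp, and on chromosome 7 at 4000 bp, and the regions just outside at GAREM2 and CACNA2D1 had 3998 and 3997 bp. A start of a protein-coding gene was present in 1280 domains (93.8%, against 76.3% of narrower regions), a non-coding start alone in 61, and none in 23. Starts of more than 1 coding gene were present in 270 (19.8%, against 11.1%). A wider region has more room for a start, so these shares favour the broad domains. The domains had a lower CpG density than the narrower regions, at a median of 45.5 against 50.8 per kb, and a lower GC content, at 53.6% against 57.1%, while the ratio of observed to expected CpG was alike, at 0.644 and 0.650. In 926 domains with 1 coding gene and its canonical start inside, H3K4me3 reached a median of 1529 bp upstream and 3352 bp downstream. It reached farther downstream in 86.4% of them, a share close to the 86.7% in narrower regions, whose reach was 788 and 1415 bp.

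Genes of the adrenergic state, in which neuroblastoma cells resemble sympathetic neuroblasts, led the width ranking. HAND2, a basic helix-loop-helix factor of sympathetic neurons, lay in a domain of 24532 bp on chromosome 4 from 173515724 to 173540255, rank 2 of 19562, which also held the start of HAND2-AS1. GATA3, a zinc finger factor of the same lineage, lay in 19446 bp on chromosome 10 from 8044709 to 8064154 (rank 3), and its relative GATA2 in 19097 bp on chromosome 3 (rank 5). TBX3, a T-box repressor, had 19320 bp on chromosome 12 (rank 4). Rank 1, of 27869 bp, was on chromosome 1 from 228620828 to 228648696 over a tandem array of 5S ribosomal RNA genes, whose near-identical copies make the placement of reads uncertain. The remaining 5 of the 10 widest lay at RGS5 (14228 bp), a regulator of G protein signalling, ELAVL4 (13989 bp), a neuronal RNA-binding protein, CCDC33 and STRA6 (13161 bp), the cluster of KIF22 and MAZ (13051 bp), and CYGB and PRCD (12835 bp). Of the 250 bases before the RefSeq start of RGS5, 0 lay in a broad domain.

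**Figure D1:**
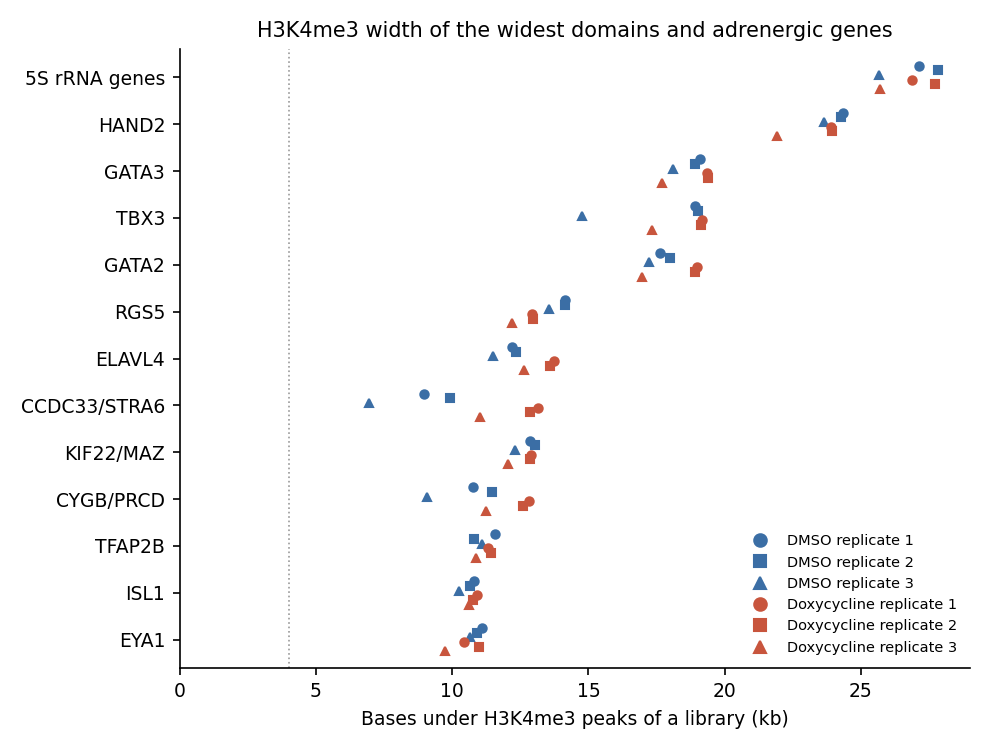
Bases under H3K4me3 peaks (kb) in each of the 6 libraries, for the 10 widest domains and for TFAP2B, ISL1 and EYA1. Colour gives the treatment, symbol the replicate and the dotted line 4 kb. The HAND2 libraries sit between 21921 and 24339 bp and the GATA3 libraries between 17701 and 19387 bp.

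Widths of single libraries were close to one another at these genes. At HAND2, 24339, 24262 and 23658 bp lay under peaks in the DMSO libraries and 23915, 23939 and 21921 bp in doxycycline. Doxycycline replicate 3 was the low library, and the treatments overlapped. At GATA3 the values were 19081, 18917 and 18105 bp in DMSO and 19364, 19387 and 17701 bp in doxycycline, and the groups overlapped. ISL1, a LIM homeobox factor, had 10796, 10643 and 10248 bp in DMSO and 10920, 10749 and 10618 bp in doxycycline. SOX11 varied little, with 8908, 8919 and 8814 bp against 8890, 8921 and 8783 bp.

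Of 22 adrenergic core transcription factors, 18 (81.8%) had a start in a broad domain, against 1551 of 19962 coding genes (7.77%). Among genes with a region of all 6 lists the shares were 85.7% and 10.9%. The list was chosen with earlier results of these data known, so the contrast is a description and was not tested. Among the widest were HAND2, GATA3, GATA2, TFAP2B (11563 bp), ISL1 (11135 bp), EYA1 (11102 bp) and TBX2 (10567 bp). Others of the 18 were SOX11, KLF7, PHOX2A, HAND1, HEY1, ZNF536, PBX3, KLF13 and DACH1, at 4856 to 8947 bp. SIX3 (3889 bp), SATB1 (3875 bp) and INSM1 (3431 bp) fell below 4000 bp. MYCN, the amplified driver of this line, drew on no region with all 6 lists: a start of the gene was under a peak in 1 of 6 libraries. Peaks were called against input of the same amplified cells, so a missing peak does not show a missing mark. The median width of the region at the 21 adrenergic genes with one was 7571 bp, against 2475 bp over all 14181 coding genes with one.

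More broad domains lay near some of these genes. Within 200 kb of the HAND2 domain there were 3, at HMGB2, SAP30 and a non-coding start (16282 bp in all). GATA3 and ISL1 had none within that distance. Among domains without a coding start, 2 arrays of 5S genes (27869 and 12428 bp) were the widest, followed by 11307 bp on chromosome 4 from 174208256 to 174219562 at the non-coding gene ENSG00000289179.

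Of 30 neuronal cytoskeleton, neurite and secretory genes, 16 (53.3%) lay in broad domains. ELAVL4 and CHGA, the granule protein chromogranin A (11750 bp), were the widest. DBH and TH, enzymes of noradrenaline synthesis, had 11384 and 7475 bp. Replication-dependent histone genes followed at 36 of 68 (52.9%), but these shared 18 domains, since the genes are clustered; the widest held H2AC13 (8579 bp) and H2AC18 (7490 bp). Cytosolic ribosomal protein genes had 33 of 86 (38.4%), led by RPL3 (7582 bp) and RPS2 (7382 bp, a domain shared with NDUFB10). Among RUNX1T1, its family, partners and corepressors, 8 of 17 (47.1%) did, among them TCF4 (9978 bp), RUNX1T1 (7037 bp), SIN3A, RCOR2, NCOR1, RCOR3 and TCF12. Of 34 tumour suppressor genes, 8 (23.5%) did, among them ARID1A (8364 bp). Of 18 H3K4 methylation enzymes and partners, 5 (27.8%) did, led by SETD1B (10734 bp, a domain shared with RHOF) and HCFC1 (6197 bp).

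Of 27 mesenchymal state transcription factors, 4 (14.8%) lay in broad domains: TWIST1 (6634 bp), FOSL2 (6631 bp), TCF7L2 and NR3C1. Of 11 MYC network genes, 3 (27.3%) did, MYC (5187 bp), MXI1 (4977 bp) and MNT, whereas MAX, the obligate partner of MYC proteins, had 2804 bp (rank 4688). Of 27 replication and cell cycle genes, 2 (7.41%) did, CCND1 (11133 bp), encoding cyclin D1, and CDK6 (8836 bp), its kinase partner. HOX genes had 2 of 39 (5.13%), HOXC4 (6288 bp) and HOXD11 (5060 bp), and forkhead and SOX genes 7 of 64 (10.9%), led by SOX11 (8947 bp) and FOXC1 (7769 bp). These shares are descriptions, since the lists were not tested for enrichment.

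**Figure D2:**
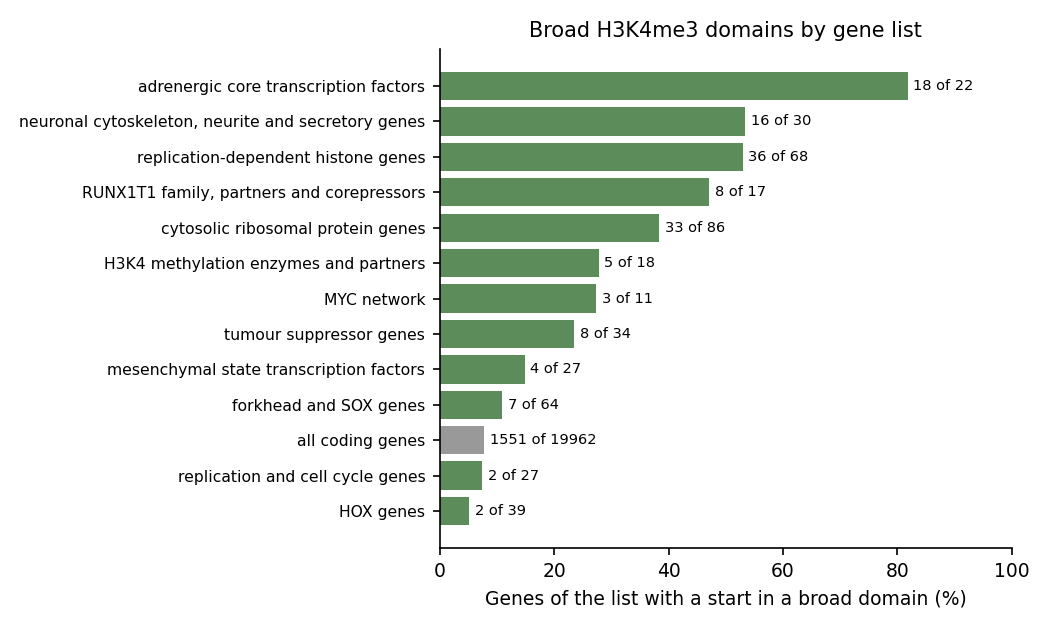
Percent of each gene list with a start in a broad domain, with the count of genes beside each bar; the grey bar is all coding genes. Adrenergic core factors stand at 18 of 22 and all coding genes at 1551 of 19962.

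Other marks were then compared between broad domains and the narrower regions, to ask what the domains carry beside H3K4me3. H3K27ac covered 84.8% ± 2.02 of the bases of broad domains and 71.0% ± 3.36 of those of narrower regions (SD, n = 6 libraries). It was higher in 6 of 6 libraries, by 13.8 percentage points (range 10.6 to 15.9; exact sign-flip test, two-sided p = 0.0312, the smallest possible, adjusted over 4 marks 0.0417). H3K4me1 went the other way, at 49.2% ± 4.56 against 58.8% ± 6.0, and was lower in 6 of 6 libraries by 7.39 to 12.1 points (exact p = 0.0312, adjusted 0.0417). H3K27me3 covered 3.70% ± 0.851 against 8.68% ± 1.80, lower in 6 of 6 libraries by 4.10 to 6.30 points (exact p = 0.0312, adjusted 0.0417). H3K4me2 covered 84.9% ± 8.12 against 85.7% ± 8.13, higher in 4 of 6 libraries, with a mean difference of -0.84 points (exact p = 0.938, adjusted 0.938). With the midpoints of regions in place of bases, H3K4me2 was lower in broad domains by 2.61 points (exact p = 0.0312, adjusted 0.0312). By that measure H3K27ac was higher by 8.89 points, H3K4me1 lower by 21.8 and H3K27me3 lower by 6.76. The directions of these 3 were kept, but their sizes depended on the measure.

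H3K27ac was present in all 6 libraries at 1336 of 1364 domains (97.9%, against 83.2% of narrower regions), H3K4me2 at 1355 (99.3%, against 97.9%) and H3K4me1 at 1267 (92.9%, against 84.7%). H3K27me3 was present in all 6 at 86 (6.30%, against 11.9%) and in none at 1216 (89.1%, against 79.1%). A longer region has more chance of meeting a peak, so these counts favour the broad domains. Shares of bases may depend on width as well, which was not tested. The share of H3K4me3 itself was higher in broad domains in 6 of 6 libraries, by 0.77 to 4.68 points. Fold enrichment of H3K4me3 over input, as the peak caller gave it, was taken from the highest peak of a library in each region. Its median lay at the 74.7th to 81.0th percentile of its list in broad domains and at the 62.3rd to 66.8th in narrower regions. A region with more peaks has more chance of a high one, and the domains were chosen by this mark, so this is a description.

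**Figure D3:**
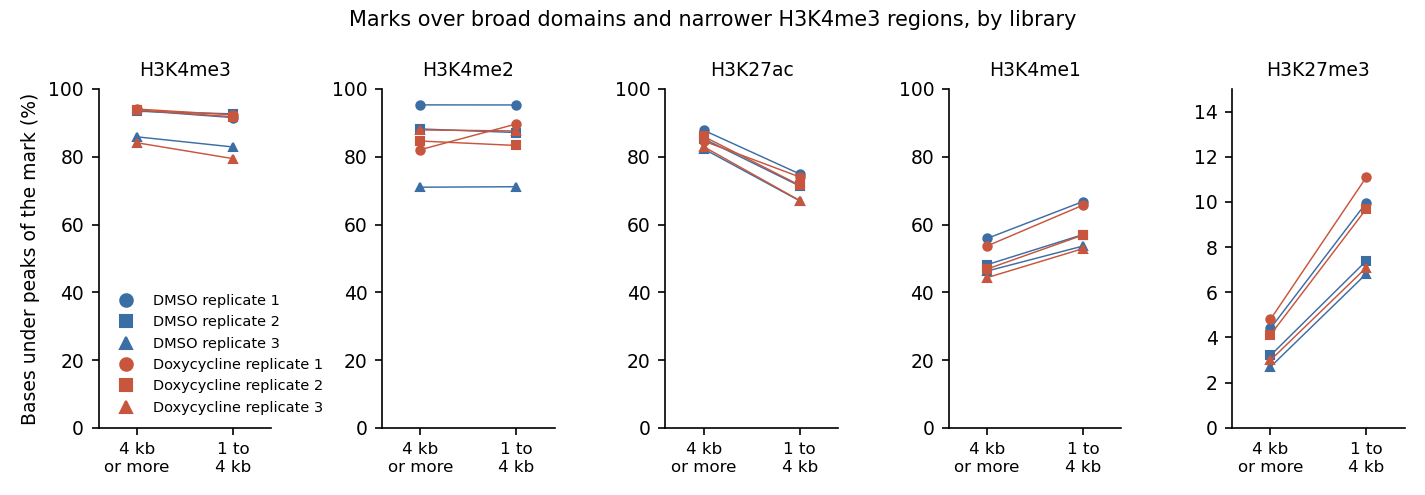
Percent of bases of broad domains (4 kb or more) and narrower regions (1 to 4 kb) under peaks of each mark; each line joins the values of 1 library, and the H3K27me3 axis ends at 15%. H3K27ac falls and H3K4me1 and H3K27me3 rise from broad to narrower in 6 of 6 libraries.

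Around the canonical start, these marks were arranged in order. At the 926 domains with 1 gene, H3K4me3 covered 99.3% of starts in DMSO, 88.3% of positions 2000 bp downstream and 53.1% at 3000 bp. H3K27ac covered 96.8%, 71.8% and 51.3% at the same positions, and 25.1% at 6000 bp, where H3K4me3 covered 7.70%. H3K4me1 was low at the start, at 13.7%, and reached 59.6% at 2000 bp and 69.5% at 3000 bp. Averaged over 6 libraries its maximum was 70.7%, at 2800 bp downstream. In narrower regions H3K4me1 covered 36.7% of starts in DMSO, and its maximum was 62.3%, at 1200 bp. H3K4me2 in broad domains dipped at the start, to 56.1% over 6 libraries. Narrower regions had a dip as well, with 60.5% at the start and 77.3% at 1000 bp downstream in DMSO. The DMSO libraries varied widely at the start, with an SD of 21.3 points in broad domains and 18.5 in narrower regions. Upstream at 2000 bp the DMSO values were 25.1% for H3K4me3, 39.9% for H3K27ac and 47.7% for H3K4me1.

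**Figure D4:**
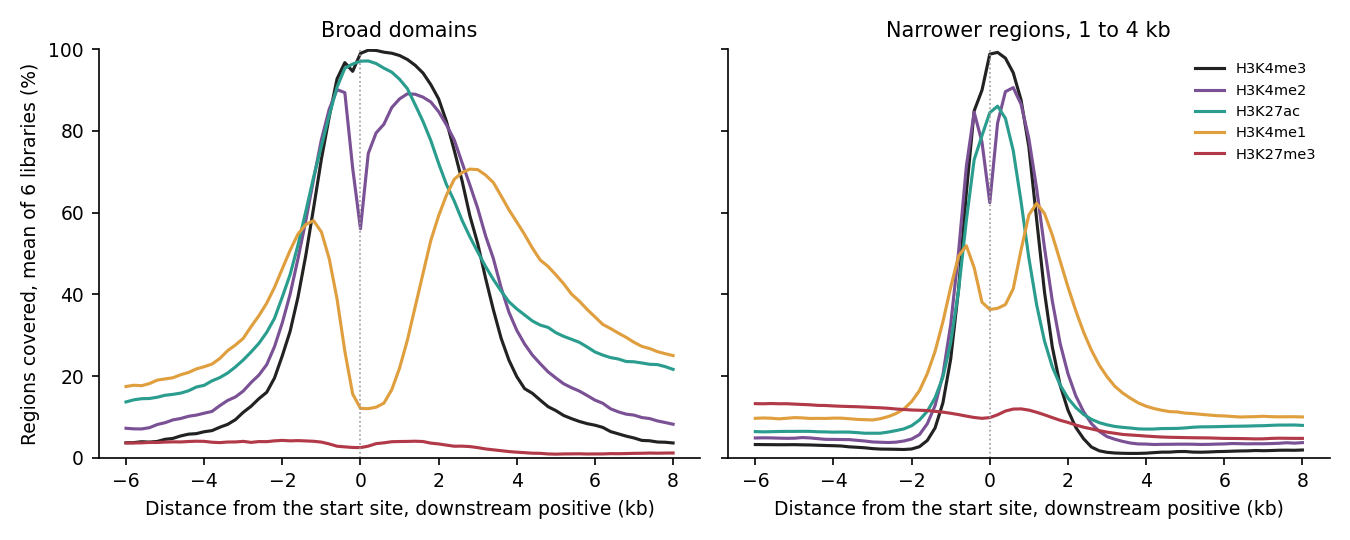
Percent of regions covered by each mark at distances from the canonical start (kb, downstream positive), mean of 6 libraries, at 926 broad domains and 8883 narrower regions. H3K4me1 dips at the start and peaks at 2800 bp downstream in broad domains and at 1200 bp in narrower regions.

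The 86 domains with H3K27me3 in all 6 libraries had a median of 54.0% of their bases under that mark (quartiles 32.3% and 74.6%) and a median width of 4562 bp, against 4746 bp in the other domains. In bulk chromatin, both marks on 1 allele and a mixture of cells or alleles cannot be told apart. H3K27ac was present as well, in all 6 libraries, at 58 of the 86. FOXC1, a forkhead factor, had 7769 bp and H3K27me3 over 41.0% to 100.0%. MYC, the other main MYC family gene in this MYCN-driven line, carried H3K27me3 over 49.8% to 66.9% of 5187 bp and H3K27ac over 630 to 1138 bp. In 5 domains H3K27ac was in no library, and all 5 had H3K27me3 in all 6: LHX1, EGR2, NPTX1, and the non-coding starts at SMPD5 and ENSG00000259410. At LHX1 and NPTX1, H3K27me3 covered 100.0% in every library. At the HAND2 and GATA3 domains H3K27me3 covered 0 bp in every library, and H3K27ac covered 24532 bp of HAND2, its full width, in all 6.

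Knockdown of RUNX1T1 acts on messenger RNA and is not checked by these marks. The domain at RUNX1T1 itself, on chromosome 8 from 92097517 to 92104553, had 5305, 5392 and 4524 bp under H3K4me3 in DMSO and 5918, 6818 and 5036 bp in doxycycline. The groups overlapped, and doxycycline was higher in 3 of 3 same-numbered pairs (log2 difference 0.22, limma adjusted p = 0.935, with the block 0.116).

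Over the whole set, width did not differ between treatments beyond the spread of the libraries. The mean of log2 covered bp was 12.17 ± 0.077 in DMSO and 12.17 ± 0.097 in doxycycline (SD, n = 3), a difference of -0.0041 (exact permutation p = 1; 20 assignments cannot give a p under 0.1). The same-numbered pairs gave 0.0094, 0.0058 and -0.027 (exact sign-flip p = 1). Replicate 3 was low in both groups: a single peak of 4000 bp or more was present at 1006, 1005 and 640 domains in DMSO and at 982, 1000 and 526 in doxycycline. It was present in all 6 libraries at 435 domains and in none at 91. In the lists pooled by treatment, 992 domains reached 4000 bp in both, 186 in DMSO alone, 153 in doxycycline alone and 33 only when all lists were pooled. Thus the rule took in some regions through the treatment in which they were wider, and counts of changed members are not read against the rest.

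The other marks over the domains also overlapped between treatments. H3K4me2 covered 95.3%, 88.2% and 71.0% of their bases in DMSO and 82.1%, 84.6% and 87.9% in doxycycline, so the spread lay within groups (means 84.8% and 84.9%, exact permutation p = 1, adjusted 1). H3K27ac covered 87.8%, 85.3% and 82.3% against 84.6%, 86.0% and 83.0%, a difference of -0.62 points (exact permutation p = 0.8, adjusted 1). H3K4me1 covered 55.9%, 48.1% and 46.3% against 53.7%, 46.8% and 44.3%, lower in doxycycline in 3 of 3 same-numbered pairs, with a difference of -1.82 points (exact permutation p = 0.6, adjusted 1). H3K27me3 covered 4.40%, 3.20% and 2.70% against 4.80%, 4.11% and 2.99%, higher in doxycycline in 3 of 3 same-numbered pairs, with a difference of 0.54 points (exact permutation p = 0.5, adjusted 1). The 3 highest H3K27me3 values belonged to the libraries with a fragment length estimate of 256 to 280 bp, and the 3 lowest to those with 105 to 112 bp, whose part in the difference was not tested. In H3K27me3 replicate 2 the estimates were 112 bp in DMSO and 280 bp in doxycycline. Replicate numbers were not taken to pair libraries in these marks, so the counts of same-numbered pairs are descriptions only.

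Single domains were compared in a fit over all 19562 regions (limma, log2 covered bp). At a Benjamini-Hochberg adjusted p of 0.05 or less, 4 of 1364 domains were called, 3 wider and 1 narrower in doxycycline, where 0.0307% of all regions were called, and at an unadjusted p under 0.05 there were 156 of the domains and 1142 of the 19562 regions. In H3K4me3, same-numbered libraries deviated together (correlations 0.27, 0.32 and 0.48), and with the replicate number as a block 37 domains were called, 24 wider and 13 narrower, where 0.665% of all regions were. The 37 included all 4. Of the 37, 33 had libraries that did not overlap between treatments. Libraries did not overlap at 88 domains with higher and 131 with lower values in doxycycline, where the shares over all regions were 4.25% and 7.1%. Without DMSO replicate 1 no domain was called (limma, no block), without both replicate 3 libraries 67 were, and among the 992 domains that reached 4000 bp in both treatments none was. Of the 37, 11 reached 4000 bp in both treatments, 18 in doxycycline alone and 8 in DMSO alone. No adrenergic, mesenchymal, MYC network, histone, ribosomal protein, HOX or corepressor list domain was among the 37, and RET and L1CAM, both of the neuronal list, were the 2 list members called, both wider.

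LHX1, a LIM homeobox factor of early neural development, had the lowest p in the fit without the block. It lay on chromosome 17 from 36933646 to 36939859, with 3429, 3514 and 3329 bp under H3K4me3 in DMSO and 5975, 5820 and 5628 bp in doxycycline. Every doxycycline library exceeded every DMSO library (log2 difference 0.76, SE with the block 0.032; limma adjusted p = 0.00805, with the block 0.00297). Its pooled DMSO lists reached 3784 bp, so it and the other 2 wider domains met the 4000 bp rule through the doxycycline lists, and HMGCS1 met it through DMSO. Their p-values describe these regions and are no support for a change of broad domains. H3K27me3 covered the whole domain in all 6 libraries and H3K27ac none of it, while H3K4me2 covered 5032, 3791 and 3206 bp in DMSO and 6214, 5446 and 6156 bp in doxycycline (limma adjusted p = 1). The other 2 wider domains were on chromosome 9 from 134346619 to 134350907, with no annotated start, and on chromosome 17 from 63427464 to 63432144 at ENSG00000263644. The first had 1137, 1326 and 883 bp in DMSO against 4119, 4278 and 3341 bp (log2 difference 1.82, limma adjusted p = 0.0163, with the block 0.00192, the lowest in that fit). The second had 1789, 1786 and 1623 bp against 4357, 4469 and 3335 bp (log2 difference 1.22, limma adjusted p = 0.024, with the block 0.00572). H3K27ac and H3K4me1 covered both over their full width in every library.

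HMGCS1, the synthase that supplies HMG-CoA for cholesterol synthesis, was the narrower one. It lay on chromosome 5 from 43309316 to 43313660, with 4009, 3737 and 3977 bp in DMSO and 2161, 1779 and 1776 bp in doxycycline. All doxycycline libraries were below all DMSO libraries (log2 difference -1.04, SE with the block 0.059; limma adjusted p = 0.0143, with the block 0.00684). The domain reached 248 bp upstream and 4096 bp downstream of the start shown above. H3K4me1 covered 2738, 2350 and 2742 bp of it in DMSO and 3316, 3036 and 3222 bp in doxycycline (limma adjusted p = 1), and H3K27ac at least 4230 of 4345 bp in every library. In the fit without the block, next by p among the narrower domains came NRXN3, a presynaptic adhesion protein, with 3883, 4015 and 3683 bp against 2664, 2898 and 2601 bp (log2 difference -0.51, limma adjusted p = 0.0685, with the block 0.0141). LRRC4C, a synaptic adhesion protein, had 4936, 4648 and 4798 bp against 3515, 3091 and 3566 bp (log2 difference -0.50, limma adjusted p = 0.0854, with the block 0.0196). At LRRC4C, H3K27ac covered 4973, 4954 and 4552 bp in DMSO and 1072, 848 and 1086 bp in doxycycline (log2 difference -2.07, limma adjusted p = 0.00865).

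The domains called with the block are named here after their values were seen. Of the 37, 18 reached 4000 bp in doxycycline alone and 8 in DMSO alone, and so met the rule through 1 treatment. For domains called with the block, here and below, non-overlap and p-values describe these regions and are no support for a change of broad domains. ASS1, the enzyme that makes argininosuccinate in arginine synthesis, had 2754, 3230 and 2423 bp in DMSO and 6816, 6933 and 5324 bp in doxycycline (log2 difference 1.18; limma adjusted p = 0.053, with the block 0.00297). H3K4me1 over the ASS1 domain was 7325, 7325 and 6302 bp in DMSO and 5619, 5784 and 5345 bp in doxycycline, without overlap (limma adjusted p = 1). Among receptors and adhesion proteins of neurons, RET, the receptor of the GDNF family, had 4240, 4296 and 3736 bp against 5247, 5567 and 4871 bp. L1CAM had 4122, 4267 and 2863 bp against 5376, 5214 and 3591 bp, overlapping through replicate 3. PLXNA4, a semaphorin receptor, had 2767, 3196 and 2932 bp against 4654, 5092 and 4379 bp. CNTFR, SDK2 and ADCYAP1, the last encoding the neuropeptide PACAP, were wider as well, with log2 differences of 0.34, 0.37 and 0.28.

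Signalling and other genes were among the wider domains too. EGR1, an immediate early transcription factor, had 3193, 3619 and 3069 bp in DMSO and 4585, 4729 and 4552 bp in doxycycline. DUSP8, a phosphatase of MAP kinases, had 2183, 1974 and 1919 bp against 4254, 3496 and 2737 bp. The domain of STRA6, a retinol transporter, and CCDC33 had 8948, 9914 and 6962 bp against 13142, 12844 and 11014 bp. BCL2, an inhibitor of apoptosis, had 6467, 5265 and 5729 bp against 7510, 6661 and 6979 bp. These 4 groups of libraries did not overlap between treatments, and their log2 differences were 0.49, 0.77, 0.53 and 0.28 (limma with the block, adjusted p = 0.0242, 0.0315, 0.0298 and 0.044).

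Narrower domains included HSPA5, the chaperone BiP of the endoplasmic reticulum, with 6434, 6574 and 5292 bp in DMSO and 4826, 4055 and 3141 bp in doxycycline. RFK, riboflavin kinase, had 4850, 4961 and 4259 bp against 3298, 3551 and 3022 bp (log2 difference -0.51, limma with the block, adjusted p = 0.0111, the lowest after HMGCS1 among narrower domains). SEC63, of the translocon of the same organelle, had 4200, 4172 and 3650 bp against 3047, 3079 and 2552 bp. MAOA, which degrades monoamines, had 6740, 5722 and 4437 bp against 4328, 4167 and 2646 bp. BTG1, an antiproliferative factor, had 6108, 5323 and 5454 bp against 4681, 4075 and 3811 bp. In each of these 5 the treatments did not overlap, and at HSPA5, SEC63, MAOA and BTG1 the log2 differences were -0.62, -0.47, -0.61 and -0.43 (limma with the block, adjusted p = 0.0298, 0.0184, 0.0242 and 0.0242).

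**Figure D5:**
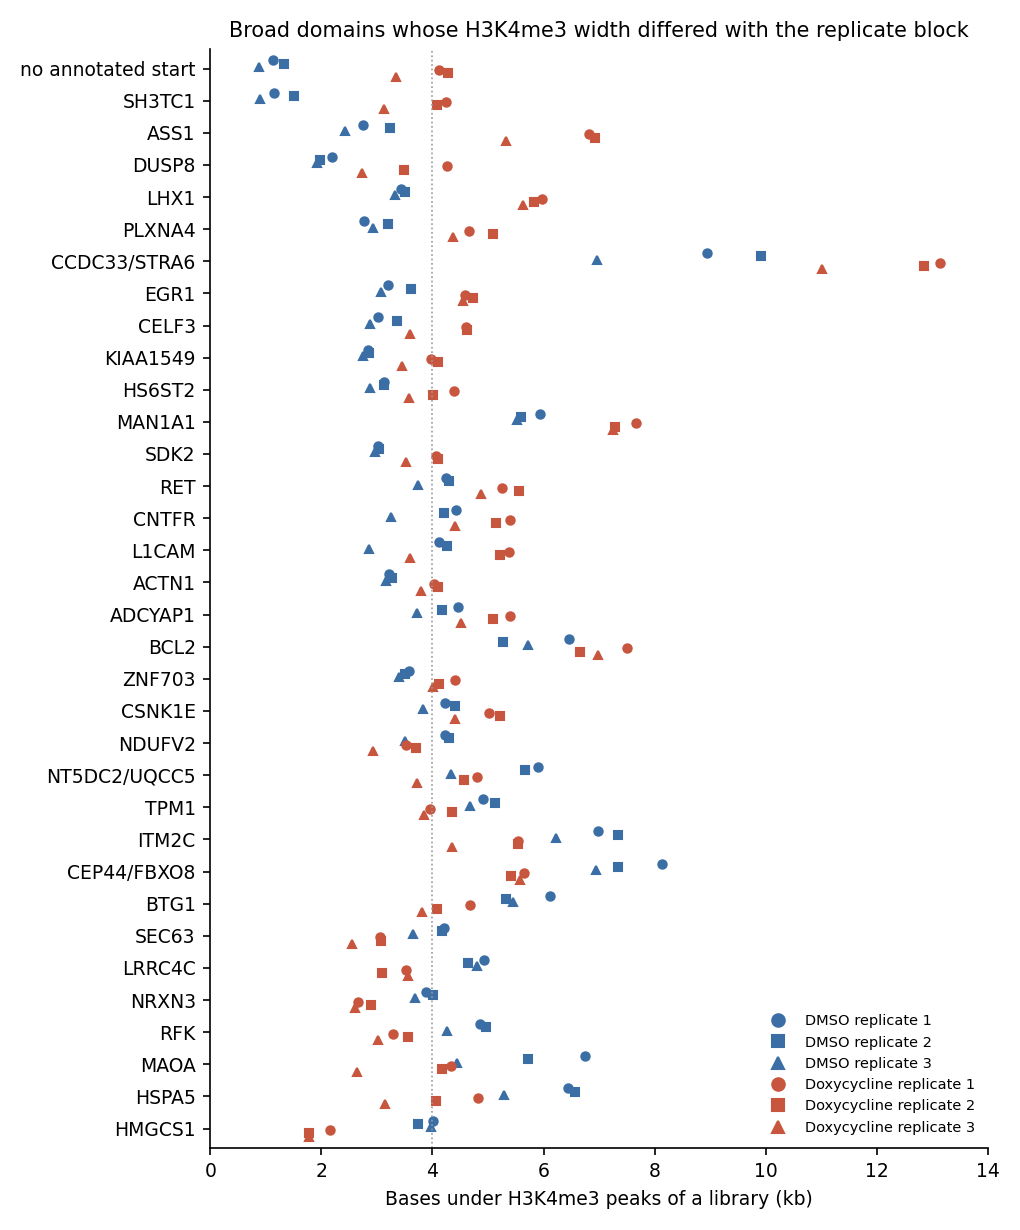
Bases under H3K4me3 peaks (kb) in each library for the called domains with the replicate block, from the highest log2 difference (top) to the lowest; the 3 known only by an Ensembl identifier are left out, and the dotted line marks 4 kb. DMSO libraries lie left of the doxycycline libraries at LHX1 (3329 to 3514 against 5628 to 5975 bp) and right of them at HMGCS1 (3737 to 4009 against 1776 to 2161 bp).

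No domain of the 18 adrenergic core transcription factors passed the test in either fit. Their log2 differences ranged from -0.08 to 0.053, with a median of -0.0012, where all domains ranged from -1.04 to 2.73 with a median of -0.017. At DBH, an adrenergic marker that is no transcription factor, 10038, 10072 and 8381 bp in DMSO stood against 11323, 10700 and 9223 bp. The treatments overlapped, and doxycycline was higher in 3 of 3 same-numbered pairs (log2 difference 0.13, limma adjusted p = 0.951, with the block 0.166).

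Calls in the other marks over broad domains were few. H3K27ac gave 3 of 1355 tested, all lower in doxycycline, where 0.35% of all regions were called: LRRC4C, CCDC6 and SRGAP2B, the last a member of a family of near-identical copies whose reads may be split. H3K4me1 gave 3 of 1342, all lower, where 0.193% of all regions were called. These were KCNC4, a potassium channel (4767 bp in 3 of 3 DMSO libraries and 3468, 3398 and 3351 bp in doxycycline), ACTG1, encoding gamma actin (6975, 6917 and 6743 against 5564, 5592 and 5621 bp), and CAMKK1. H3K27me3 gave 2 of 114, both higher, where 0.341% were called. At HJV, whose product regulates hepcidin, H3K27me3 covered 0 bp in 3 of 3 DMSO libraries and 441, 382 and 426 bp in doxycycline. HJV met the filter of a peak in at least 3 libraries through doxycycline alone, so its call is no support for a gain. A domain on chromosome 1 from 161461440 to 161465920 had 3276, 3042 and 3096 bp against 4481 bp, its full width, in 3 of 3. H3K4me2 gave none in limma, with 19 of 1363 domains and 185 of all 19425 regions tested at an unadjusted p under 0.05. With the replicate block limma called none in any of these 4 marks. H3K27ac calls fell to 0 without DMSO replicate 1, DMSO replicate 2 or doxycycline replicate 3, and rose to 5 without DMSO replicate 3 and 9 without doxycycline replicate 1. H3K4me1 calls were 1 without DMSO replicate 2, 2 without doxycycline replicate 2 or 3, 5 without DMSO replicate 1 and 8 without doxycycline replicate 1. H3K27me3 calls were 0 without DMSO replicate 2 or 3 and 1 without doxycycline replicate 1 or 2. Libraries did not overlap in H3K4me2 at 29 domains with higher and 14 with lower values in doxycycline, where the shares over all regions were 2.11% and 0.875%. In H3K27ac they did not overlap at 55 and 93 (5.07% and 6.63% over all), in H3K4me1 at 47 and 97 (2.43% and 3.61%), and in H3K27me3 at 7 and 0 of 114 (4.66% and 0.199%). A domain that is fully covered in both treatments cannot show a gain.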

How the data were processed

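ChIP-seq peak lists of 5 marks in 6 libraries each (30 lists; 34 samples with 4 inputs) were used. The authors aligned reads to hg38 with Bowtie2, kept mapping quality 30 or more and called peaks per library with MACS2 against input. There were 2 inputs per treatment. By input read count (81.5 M in DMSO, 63.4 M in doxycycline), replicates 1 and 3 of each treatment shared an input, so their lists are not fully independent. Per the file headers, H3K4me2 and H3K4me3 were called in narrow mode at p 1e-5 and the others in broad mode at q 0.05; the methods of the study give q 0.05 for all. The deposited pileup (signal), −log10 p-value and −log10 q-value and fold enrichment (a ratio to input) are those the authors' caller gave; only −log10 q-value and fold enrichment were used, within lists. Deposited peak positions gave all lengths.

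A library's width in a domain is the bases under its merged peaks. Genes came from GENCODE release 44. Widths were fitted with limma 3.58.1 (R 4.3.3; log2 bp; 200 bp added for other marks, in regions with a peak in at least 3 libraries), with Benjamini-Hochberg adjustment over all regions. Other tests were exact and two-sided. Interval functions were checked against bedtools 2.31.1. In simulated widths of 19562 regions for doxycycline against DMSO, the H3K4me3 fit recovered 3% of log2 shifts of 0.3 and 69% of shifts of 1. Python 3.11.15, numpy 2.4.6, pandas 2.3.3 and scipy 1.17.1 were used. Replicate numbers come from the labels. They were taken to pair H3K4me3 libraries because all 3 correlations exceeded 0.1, which failed in at least 1 pair of every other mark. Members and gene lists were chosen with earlier results of these data known. Named genes were the 10 widest domains, adrenergic core genes, the 3 lowest p in each direction, the widest with H3K27me3 or without coding start, those at the threshold, study genes and the 2 widest of each list; others were named after seeing values. Results for some genes that this rule names are not reported here.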

Additional observations from a re-analysis of the deposited data

Results flagged for a closer look

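Alternative and unplaced sequences of hg38, which the domains above leave out, held 27 H3K4me3 regions of 4000 bp or more with peaks of all 6 lists, a signal outside the sequences compared. They are given as a count only.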

How the results depend on the processing

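Peak lists hold no reads per domain, so a width depends on where calling stopped, and libraries called at lower depth can give shorter peaks. Depth, treatment and drug cannot be told apart, and 3 libraries a group limit the precision.

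There were 3801 domains at a minimum width of 3000 bp and 560 at 5000 bp, and 1282 to 1355 with 1 library left out. The log2 width difference between treatments was 0.0046 at 5000 bp, 0.0076 without replicate 3 of both treatments (chosen after seeing the data) and -0.049 to 0.052 with 1 library left out. For H3K4me2 the treatment difference was -0.15 points at 5000 bp and -0.10 with lists of equal length. With 1 library left out it was -6.87 to 5.28 for H3K4me2, -2.04 to 0.72 for H3K27ac, -4.51 to 1.08 for H3K4me1 and 0.12 to 1.02 for H3K27me3.

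Broad against narrower, H3K4me2 measured at midpoints gave -2.61 points, past the threshold. With both sets within 1 kb of a coding start, H3K27ac gave 14.5 points, H3K4me1 -6.69 and H3K27me3 -5.06. With peaks of −log10 q of 3 or more the values were 14.3, -6.70 and -3.92. With 1 library left out the differences were -1.27 to 0.51 for H3K4me2, 13.4 to 14.5 for H3K27ac, -10.1 to -9.16 for H3K4me1 and -5.16 to -4.72 for H3K27me3, where 5 libraries cannot give an exact p under 0.0625.

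Width calls over all regions (6) became 130 with the replicate block, 88 with each library's median subtracted, 16 with peaks of −log10 q of 10 or more, 17 with lists of equal length, 13 in regions of at least 1000 bp and 304 without replicate 3 of both treatments. For broad domains (4) the same settings gave 37, 20, 10, 10, 7 and 67, and 0 when domains reached 4000 bp in both treatments, also chosen after seeing the data. Leaving out 1 library gave 0 to 26 over all regions and 0 to 12 in broad domains, with 0 without DMSO replicate 1, 1 or 2 without DMSO replicate 3 or doxycycline replicate 1 or 2, and 12 without doxycycline replicate 3. Calls over all regions in H3K27ac (57), H3K4me1 (36) and H3K27me3 (12) fell to 0 with the replicate block. In H3K27ac and H3K4me1, 3 of 3 DMSO libraries deviated most like the doxycycline library of their own number. In H3K27me3 this held for 2. With 50 bp added H3K27me3 gave 22. With 1 library left out, calls in H3K27ac, H3K4me1 and H3K27me3 were 19 to 143, 23 to 100 and 0 to 44 over all regions. In broad domains they were 0 to 9, 1 to 8 and 0 to 3. The cause of these shifts was not tested.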
